A study of Mus musculus with 6 samples.

Results

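The genes described here are 36 genes of motile cilia and of the programme by which airway cells grow many cilia. They were listed by name, with earlier results of these data known, and comprise 7 regulators and 29 structural genes. A probe matched 35 of the 36 through its RefSeq transcript, Ccdc40 had no matched probe, and all 35 were well above background on all 6 arrays and were among the 32431 genes and unnamed probes tested. Whole lungs came from 6 male C57BL6 mice aged 10 weeks, which had all been fasted for 16 h and had all then received lipopolysaccharide, the bacterial endotoxin, into the peritoneum at 20 mg/kg. At 3 h and 24 h after it, 3 mice were given recombinant antithrombin at 750 IU/kg and 3 were given saline, and lung RNA was taken at 30 h and hybridised to 1-colour Agilent arrays, 1 array per mouse. Mice without endotoxin were not analysed here, so every value compares antithrombin with saline under endotoxin.

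Motile cilia beat on the apical face of airway ciliated cells and move mucus out of the lung. The geminin-family proteins Gmnc and Mcidas act with E2f4 and E2f5 to start the programme, cyclin O and Myb take part in making the many basal bodies, and Foxj1 with the Rfx factors switches on the genes of the axoneme, the microtubule core of the cilium. The axoneme carries outer and inner dynein arms, the motors, together with nexin links, radial spokes and a central pair of microtubules that control them. In whole lung, fewer ciliated cells and less RNA per ciliated cell cannot be told apart.

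Levels are log2 spot signals less the 75th percentile of the array, so that 0 is the signal of a fairly bright probe and each step of 1 is a doubling. Probes differ in brightness for reasons other than transcript number, and levels are therefore compared between mice and not between genes. Differences are antithrombin minus saline on this log2 scale, tested with limma with Benjamini-Hochberg adjustment over all 32431 features. The labels name each mouse separately, so n counts mice. The defining markers of lung were well above background, with Sftpc between 8.56 and 8.94 and the club cell gene Scgb1a1 between 8.65 and 8.86 in all 6 mice. The share of probes well above background was 69.8% to 72.1% by array, no spot was saturated, and precision is bounded by the 6 arrays.

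Rfx factors bind the X-box, a pair of inverted cores, in the promoters of ciliary genes, and the promoters of members were read for it because these genes share the factors. RefSeq windows of assembly GRCm38.p6, from 250 bases before to 50 bases after a start site, were at hand for 32 of the 36 genes as 37 windows. The core GTTGCC was present on either strand in 19 of the 37 windows (51.4%), against 12.5% of all 32851 windows. A loose X-box was spelled GTNNCCNGNNAC, GTNNCCNNGNNAC, GTNNCCNNNGNNAC or GTNNCCNNNNGNNAC, was searched on either strand, and can overlap the core. It was chosen with the expression values known and was present in 19 windows (51.4%), against 13.4% of all windows. Base composition was not matched between the members and all windows, and a match describes letters, not a bound site. The forkhead words GTAAACA and ATAAACA were in 6 member windows (16.2%, all windows 7.97%) and the E2F word TTTCGCG was in 0 of 37 (all windows 0.849%). Shown here are the 250 upstream bases of 3 structural genes with large positive differences and of Tekt2, the structural gene with the most negative difference, read 5′ to 3′ with cores and X-box matches in capitals.
Lrrc23, chr6:124779728-124779977, minus strand: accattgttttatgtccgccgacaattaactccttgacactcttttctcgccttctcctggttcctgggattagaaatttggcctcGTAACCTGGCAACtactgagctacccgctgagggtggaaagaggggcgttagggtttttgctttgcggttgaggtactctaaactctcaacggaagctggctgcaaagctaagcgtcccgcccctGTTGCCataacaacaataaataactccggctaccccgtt
Spag16, chr1:69826720-69826969, plus strand: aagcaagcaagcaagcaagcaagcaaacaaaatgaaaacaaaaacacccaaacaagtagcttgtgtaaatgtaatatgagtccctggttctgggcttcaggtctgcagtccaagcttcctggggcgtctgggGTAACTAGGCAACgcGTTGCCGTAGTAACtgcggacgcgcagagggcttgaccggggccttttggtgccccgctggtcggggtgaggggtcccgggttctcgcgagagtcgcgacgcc
Dnaic2, chr11:114727169-114727418, plus strand: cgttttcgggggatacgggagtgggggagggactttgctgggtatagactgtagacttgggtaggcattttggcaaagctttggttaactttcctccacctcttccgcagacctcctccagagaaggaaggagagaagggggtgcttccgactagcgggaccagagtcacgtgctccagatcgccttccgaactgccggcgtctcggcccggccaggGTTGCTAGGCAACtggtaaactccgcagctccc
Tekt2, chr4:126325647-126325896, minus strand: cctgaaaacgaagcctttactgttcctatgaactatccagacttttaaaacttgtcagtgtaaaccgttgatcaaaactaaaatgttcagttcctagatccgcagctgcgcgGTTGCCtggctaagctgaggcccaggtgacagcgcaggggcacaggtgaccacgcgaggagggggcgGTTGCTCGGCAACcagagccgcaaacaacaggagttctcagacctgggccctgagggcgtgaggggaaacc
All 4 stretches, chosen to show matches, hold an X-box match, in genes that differed in either direction. The windows of Dnali1 and Dnah5, also among the larger positive differences, held neither pattern, nor did another window of Tekt2. Among structural genes at an unadjusted p under 0.05, 5 of 9 windows held the X-box (55.6%), and among the other structural genes 11 of 21 did (52.4%). The GTTGCC core was in 6 of 9 windows of the former (66.7%) and in 9 of 21 of the latter (42.9%). Some of the other structural genes had several windows, and Ccdc40, which had no probe, is among them. By gene, the X-box was in 5 of 9 and 10 of 17, and the core in 6 of 9 and 8 of 17. In Gmnc, the regulator with the largest difference, 1 of the 2 windows held an X-box match, and that match lay after the start site.

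No member passed the adjusted threshold with all 6 mice, and most of the structural genes were nonetheless higher after antithrombin. The count past an adjusted p under 0.05 was 0 of 35 (limma; 2 of all 32431, or 0.00617%, with 0.00308% higher and 0.00308% lower), and the smallest adjusted p among members was 0.153, shared by Lrrc23 and Rsph4a. By limma's p before adjustment, 14 members were higher and 0 lower at the 0.05 level, while 9.07% of all genes were higher and 12.3% lower. The median log2 difference over the 35 members was 0.33, over all genes tested -0.05. Positive differences were found for 28 of 35 members and for 43.9% of all genes, and negative ones for 7 members and 56.1% of all genes. In 15 members all 3 antithrombin mice lay above all saline mice and in 1 all lay below, where the background was 11.2% and 17.4% of all genes. The count of 0 lower at an unadjusted limma p under 0.05 did not hold throughout. It was 2 without saline mouse 2, where 15 were higher and 31.5% of all genes were called in either direction. It was 1 or 2 under some alternatives of processing, given at the end.

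**Figure D1:**
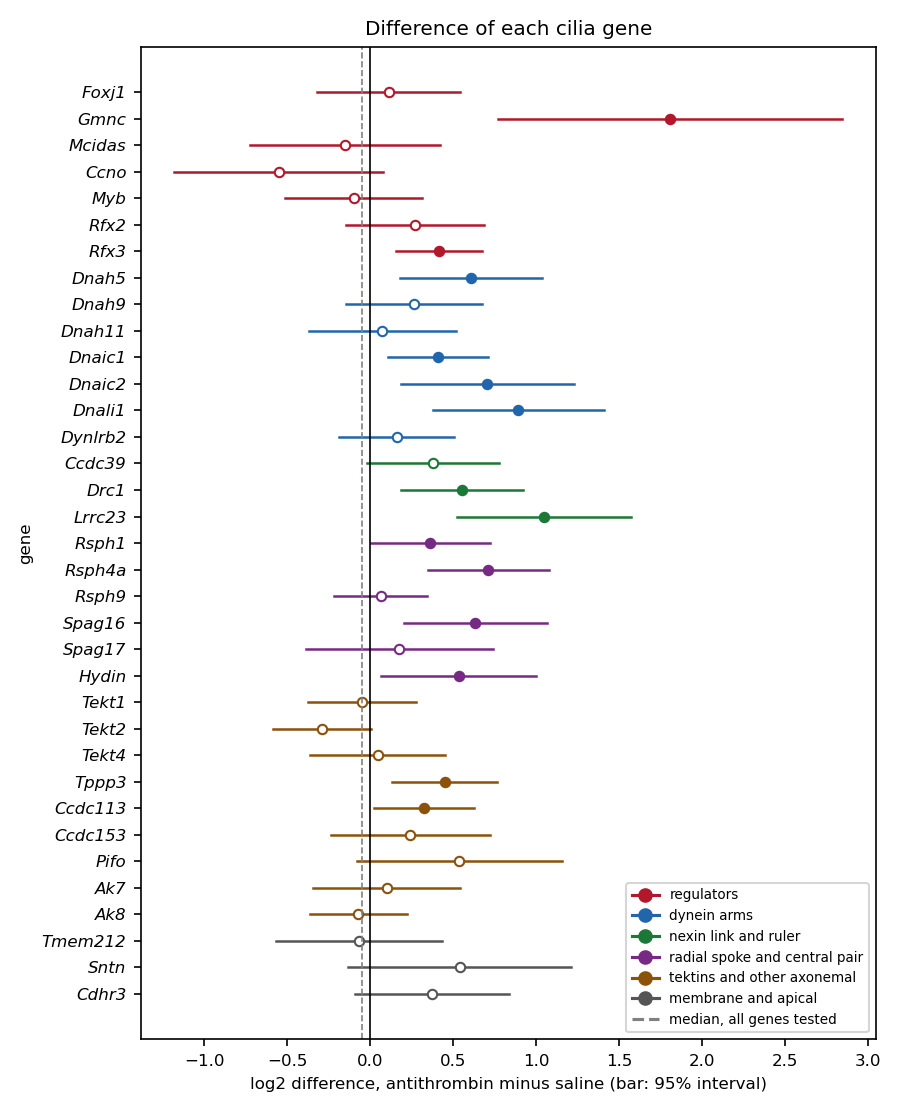
Log2 difference, antithrombin minus saline, of each of the 35 measured cilia genes, coloured by role, with its 95% interval from limma. Filled points have an unadjusted p under 0.05, and the dashed line is the median of all genes tested (-0.05). Most structural genes lie to the right of 0, while the intervals of the tektins and of the regulators other than Gmnc and Rfx3 include 0.

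Regulators and structural genes had different medians. The 7 regulators had a median log2 difference of 0.11, with 4 positive and 3 negative, and the 28 measured structural genes a median of 0.37, with 24 positive and 4 negative. The 2 medians are given as a description and their gap was not tested. With the mean of all detected probes of a gene in place of the brightest, they were -0.046 and 0.26.

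Among regulators, Gmnc (also called Gemc1), which acts first in the programme, had the largest difference. Its log2 levels were -5.01, -4.28 and -5.55 in saline mice 1, 2 and 3 and -3.82, -3.19 and -2.40 in antithrombin mice 1, 2 and 3. All 3 antithrombin mice lay above all saline mice, and the spread inside each group was wide. The log2 difference was 1.81 (SE 0.44, 95% interval 0.77 to 2.84), a 3.50-fold higher mean, with a limma p of 0.00466 that did not pass adjustment (adjusted p = 0.157). The probe was dim, with processed signals from 21.0 to 209 intensity units, and with normexp background correction, which adds an offset, the log2 difference was 0.83.

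Mcidas, the related factor that acts after Gmnc, did not separate the groups. Its levels were 4.18, 4.29 and 4.71 in saline mice and 3.77, 4.51 and 4.44 in antithrombin mice. The log2 difference was -0.15 (SE 0.24, limma adjusted p = 0.729), with an interval from -0.72 to 0.42. The probe used had processed signals between 16226 and 26008 intensity units, whereas a second Mcidas probe, for the same transcript, stood between 15.5 and 26.8 and gave a difference of -0.08. Probes of such different brightness may not both measure Mcidas, so the bright probe's difference, which is the one counted among the regulators, may not be that of Mcidas. Neither shows a difference beyond its SE.

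Ccno, the cyclin needed for making many centrioles, stood at -1.27, -1.60 and -0.55 in saline mice and at -1.54, -1.73 and -1.80 in antithrombin mice. Saline mouse 3 was far above the other mice. The log2 difference was -0.55 (SE 0.26, limma adjusted p = 0.272), the most negative of the members, and it was -0.26 without saline mouse 3. Foxj1, the master transcription factor of motile cilia, was at 1.21, 1.23 and 1.74 in saline mice and at 1.45, 1.70 and 1.37 in antithrombin mice. Its groups overlapped throughout, with a log2 difference of 0.11 and an interval from -0.32 to 0.54.

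Rfx3, which binds the X-box, stood at -1.82, -1.71 and -1.73 in saline mice and at -1.35, -1.22 and -1.45 in antithrombin mice. The groups did not overlap, and the log2 difference was 0.42 (SE 0.11, limma adjusted p = 0.157). A second, dimmer Rfx3 probe, well above background on 3 of the 6 arrays, gave -0.51 (SE 0.34), so the direction rests on the probe. Rfx2 ran from -4.10, -4.06 and -3.89 after saline to -4.02, -3.40 and -3.83 after antithrombin, a log2 difference of 0.27 (SE 0.18) with overlapping groups. Myb, which is also expressed by blood progenitors and dividing T cells, was at -0.72, -0.84 and -0.30 against -0.90, -0.68 and -0.59, and its 3 probes gave -0.10, -0.23 and -0.34.

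**Figure D2:**
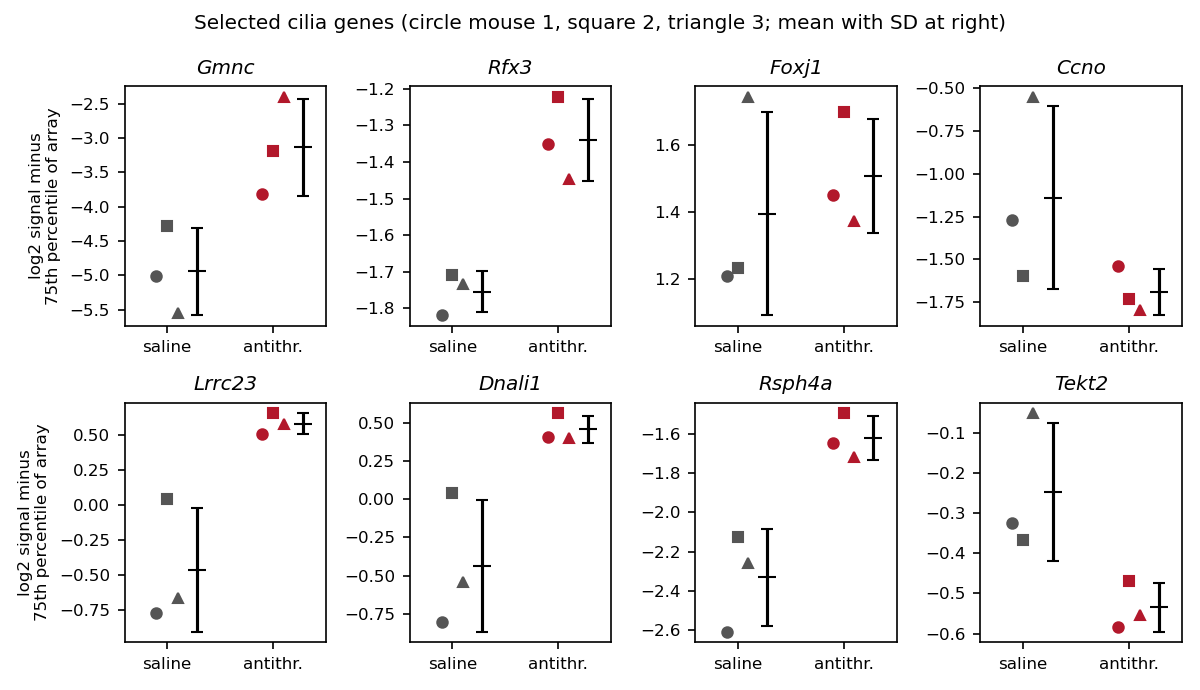
Log2 signal less the 75th percentile of the array for 4 regulators (top row) and 4 structural genes (bottom row), 1 symbol per mouse, with the mean and SD of each group (n = 3). Gmnc, Rfx3, Lrrc23, Dnali1 and Rsph4a have no overlap between groups and are higher after antithrombin, Tekt2 is lower without overlap, and Foxj1 and Ccno overlap. The vertical scale differs between panels.

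All 7 dynein arm genes had positive differences, from 0.07 to 0.89 with a median of 0.41. Of the 7, 4 had an unadjusted limma p under 0.05, while 9.07% of all genes were higher at that level. Dnali1, a light intermediate chain of the inner arms, was at -0.80, 0.04 and -0.54 in saline mice and at 0.41, 0.56 and 0.40 in antithrombin mice. Its groups did not overlap and its mean was 1.86-fold higher after antithrombin (log2 difference 0.89, SE 0.22, limma adjusted p = 0.157). Dnah5, an outer arm heavy chain, was at -1.37, -0.76 and -0.81 against -0.47, -0.32 and -0.33, a difference of 0.61 (SE 0.18). Saline mouse 1 was the lowest for both genes.

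The outer arm intermediate chains Dnaic1 and Dnaic2 differed by 0.41 (SE 0.13) and 0.71 (SE 0.22), both without overlap. A second, dimmer Dnaic2 probe gave 0.15 (SE 0.35). The other outer arm heavy chains were nearer to 0, with Dnah9 at 0.27 (SE 0.17) and Dnah11 at 0.07 (SE 0.19), and their groups overlapped. Dynlrb2, a roadblock light chain, was at 2.58, 2.92 and 3.07 in saline mice and at 3.00, 3.01 and 3.04 in antithrombin mice. The antithrombin mice were nearly equal and the difference of 0.16 (SE 0.15) came with saline mouse 1 as the low value.

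The largest structural difference was that of Lrrc23, a radial spoke protein that is grouped here with the nexin link and with the Ccdc39 ruler. Its levels were -0.77, 0.04 and -0.67 in saline mice and 0.51, 0.66 and 0.58 in antithrombin mice, 2.07-fold higher (log2 difference 1.05, SE 0.22, limma adjusted p = 0.153). The antithrombin mice lay close together and above all saline mice, of which mouse 2 was the nearest. Drc1, the base of the nexin-dynein regulatory complex, was at 0.51, 0.98 and 0.95 against 1.30, 1.47 and 1.33, a difference of 0.56 (SE 0.15) without overlap. Ccdc39, part of the ruler that sets the spacing along the doublets, differed by 0.38 (SE 0.17), and its second probe gave 0.62.

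All 6 genes of the radial spokes and central pair had positive differences, with a median of 0.45, and 4 of them had an unadjusted limma p under 0.05. Without saline mouse 1 the positive ones were 4 of 6, and 2 passed that level, as did 2 without antithrombin mouse 2 and 2 without antithrombin mouse 3. In those fits 14.5%, 15.7% and 13.5% of all genes passed it in either direction, against 21.3% with all mice. Rsph4a, of the spoke head, was at -2.61, -2.13 and -2.26 in saline mice and at -1.65, -1.49 and -1.72 in antithrombin mice, 1.64-fold higher without overlap (log2 difference 0.71, SE 0.15, limma adjusted p = 0.153). Another spoke head gene, Rsph9, was at 1.04, 1.12 and 1.34 against 1.24, 1.27 and 1.18. Its difference of 0.06 had an interval from -0.22 to 0.34, so the estimates for these spoke head genes lay apart, although the gap between them was not tested. Rsph1, a spoke head component too, differed by 0.36 (SE 0.15).

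Of the central pair genes, Spag16 was at -3.42, -2.80 and -3.05 in saline mice and at -2.44, -2.31 and -2.61 in antithrombin mice, a difference of 0.63 (SE 0.18) without overlap. Its 2 other probes, each designed on a different transcript, gave 0.20 (SE 0.37) and -0.22 (SE 0.23). Hydin, a very large central pair protein, differed by 0.53 (SE 0.20) without overlap, and its second probe gave 0.04 (SE 0.30). Spag17 differed by 0.18 (SE 0.24) with overlapping groups. For Spag16 and Hydin the estimates thus varied with the probe, and the gaps between probes were not tested.

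The 9 tektins and other axonemal genes had a median difference of 0.10, and 2 of them had an unadjusted limma p under 0.05, both higher. That count was 1 without saline mouse 1 or any 1 of the antithrombin mice. The all-gene share at that level, in either direction, was 14.5% without saline mouse 1 and 13.5% to 15.7% without an antithrombin mouse. With all mice it was 21.3%. The median of the 9 genes was 0.26 without saline mouse 3, and it was 0.04 when saline mouse 1 or antithrombin mouse 2 was left out. Tppp3, a tubulin-binding protein of ciliated cells, was at 4.02, 4.42 and 4.29 in saline mice and at 4.63, 4.71 and 4.74 in antithrombin mice. Its difference was 0.45 (SE 0.13) without overlap, and its second probe gave 0.49. Ccdc113, a coiled-coil protein of the cilium, was at 0.41, 0.76 and 0.71 against 0.92, 0.97 and 0.97, a difference of 0.33 (SE 0.13). These 2 genes, like the dynein arm genes, had their lowest value in saline mouse 1.

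The tektins, filament proteins inside the doublet microtubules, lay around 0 or below it. Tekt1 differed by -0.05 (SE 0.14), Tekt4 by 0.04 (SE 0.17) and Tekt2 by -0.29 (SE 0.12). Tekt2 was the 1 member whose antithrombin mice (-0.58, -0.47 and -0.55) all lay below the saline mice (-0.32, -0.37 and -0.05), with an adjusted p of 0.240 (limma), and its mouse values are given because of that pattern. The adenylate kinases Ak7 and Ak8 differed by 0.10 and -0.07, the coiled-coil gene Ccdc153 by 0.24, and Pifo, which acts at the ciliary base, by 0.54 (SE 0.26, second probe -0.04), all with overlapping groups.

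Of the 3 genes of the ciliary membrane and cell apex, none had an unadjusted p under 0.05 (limma). Sntn, a protein of the ciliary tip, was at -2.71, -1.79 and -1.80 in saline mice and at -1.47, -1.35 and -1.86 in antithrombin mice, a difference of 0.54 (SE 0.28). Cdhr3, a cadherin of ciliated cells, was at 0.05, 0.69 and 0.69 against 0.73, 0.93 and 0.88, a difference of 0.37 (SE 0.20). Its groups did not overlap but antithrombin mouse 1 lay just above saline mice 2 and 3, and its other probes gave 0.25 and 0.12. Tmem212, a membrane protein found in ciliated cells, was at 1.99, 2.12 and 2.67 against 2.25, 2.38 and 1.95, and the groups overlapped fully.

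**Figure D3:**
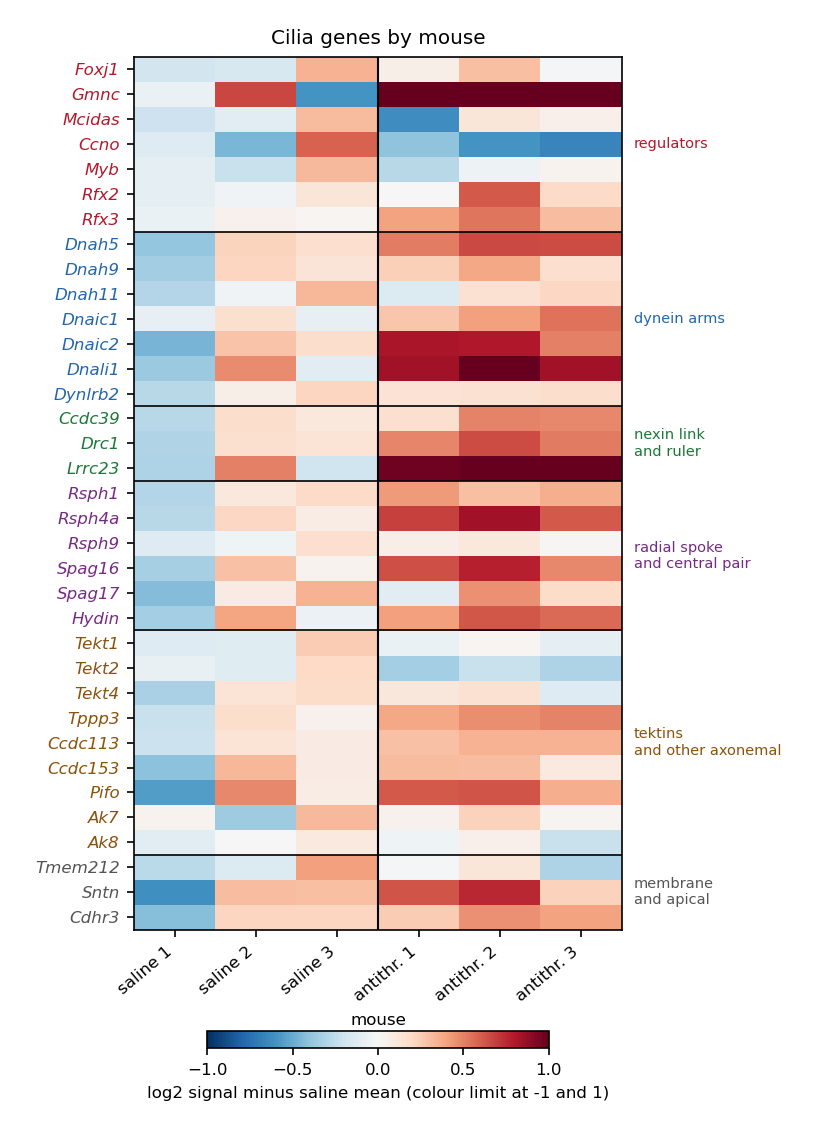
Log2 signal of each measured cilia gene in each mouse, less the mean of the 3 saline mice, with genes ordered by role and colours limited at -1 and 1. Saline mouse 1 is the lowest mouse for 24 of the 28 structural genes, and the antithrombin mice are above the saline mean for most of them.

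Saline mouse 1 stood apart on these genes. It was the lowest of the 6 mice for 27 of 35 members (77.1%) and for 24 of 28 structural genes (85.7%), where it was the lowest for 15.6% of all genes tested. Its mean over structural genes was -0.29 relative to the saline mean, against 0.15 and 0.14 in saline mice 2 and 3 and 0.31, 0.44 and 0.30 in the antithrombin mice. Without it the median difference was 0.22 over structural genes and 0.02 over regulators, and 11 members had an unadjusted p under 0.05 (limma), all higher, against 14 with it. These 11 were Gmnc, Rfx3, Dnali1, Dnah5, Dnaic1, Dnaic2, Lrrc23, Drc1, Rsph4a, Spag16 and Tppp3, with Lrrc23 at 0.89, Dnali1 at 0.71, Rsph4a at 0.57 and Gmnc at 1.77. Rsph1, Hydin and Ccdc113 were the other 3. Over all genes, 14.5% were at that level in either direction without saline mouse 1, against 21.3% with all mice.

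Saline mouse 1 was low on some airway secretory genes too. It was the lowest for 5 of 13 tested airway secretory markers (38.5%). For basal, neuroendocrine and tuft cell markers it was the lowest for 2 of 11 (18.2%), near its share of 15.6% of all genes tested. Scgb3a1 and Reg3g are named because of their values in it. Scgb3a1, a secretoglobin of larger airways, was at 0.40 in saline mouse 1 and between 6.42 and 7.57 in the other 5 mice, and the antimicrobial lectin gene Reg3g was at -0.64 against 3.97 to 6.43. The 13 secretory markers had per-mouse means of -1.37, 0.87 and 0.50 in saline mice and 0.89, 1.04 and 0.10 in antithrombin mice. Their median difference was 0.09, or -0.07 without saline mouse 1. It was 0.36 without saline mouse 3 and 0.48 without antithrombin mouse 3. Scgb3a2 (1.16) was the 1 secretory gene with an unadjusted limma p under 0.05. Saline mouse 1 was also the lowest for all 10 pulmonary vein cardiomyocyte genes, with a mean of -1.15 where saline mice 2 and 3 were at 0.35 and 0.80. Antithrombin mouse 2 was the highest for 9 of the 10 (90%, all genes 9.25%). The median difference of these genes was 0.55 with all mice and 0.02 without saline mouse 1. It was 0.19 without antithrombin mouse 2 and 0.94 without saline mouse 3. Scgb1a1 itself was not low in saline mouse 1, at 8.72, nor was Cyp2f2, a club cell cytochrome, at 6.41 against 5.90 to 6.59. The part of such cells in the differences of the cilia genes was not tested.

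Saline mouse 2 bore on the calls. Without it 6 members passed the adjusted threshold (limma), all higher: Gmnc (2.14, adjusted p = 0.0404), Lrrc23 (1.30, 0.0247), Dnali1 (1.13, 0.0263), Rsph4a (0.81, 0.0364), Hydin (0.73, 0.0371) and Spag16 (0.78, 0.0436). Of all genes, 3304 passed without it. Saline mouse 2 had the highest level of the 3 saline mice in all 6 of these genes, so leaving it out lowers the saline mean by construction and gives no separate support. Without saline mouse 3 the regulator median was 0.29.

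**Figure D4:**
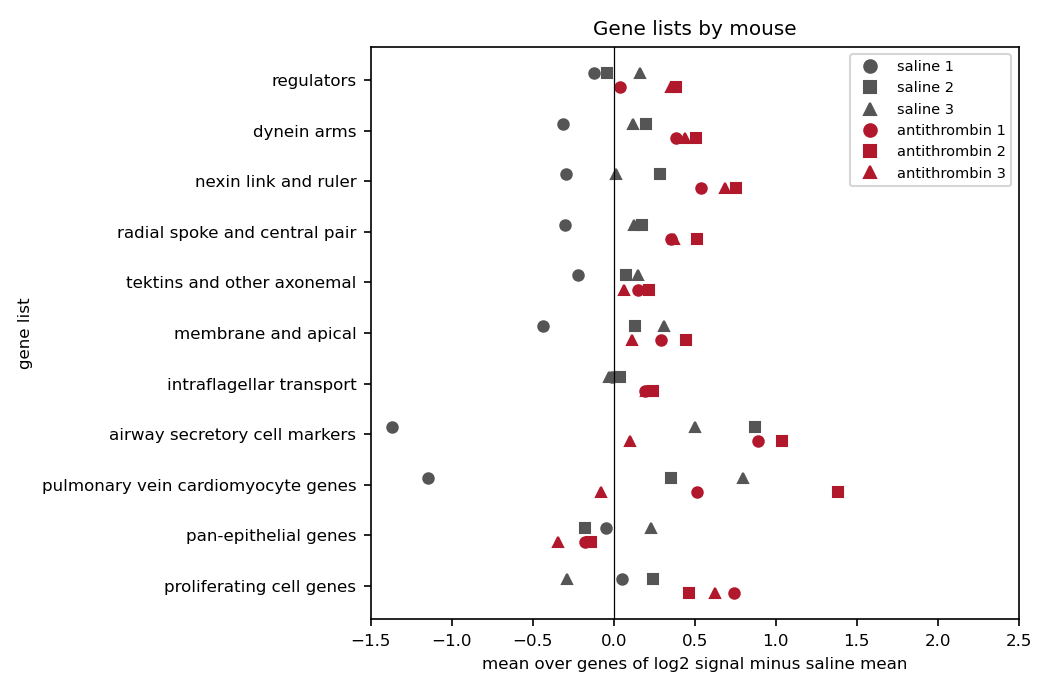
Mean over the genes of each list, after the mean of the saline mice was taken from each log2 signal, 1 symbol per mouse. On the dynein arm, nexin link and radial spoke lists all antithrombin mice lie to the right of all saline mice and saline mouse 1 is the lowest. The groups are also apart in that direction on the intraflagellar transport and proliferating cell lists, where saline mouse 3 is the lowest. On the airway secretory and cardiomyocyte lists saline mouse 1 is far to the left while the groups overlap.

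Other genes of the cilium were read from lists chosen by role. Of 31 tested other axonemal, basal body and ciliated cell genes 29 had a positive difference, with a median of 0.33, and by unadjusted limma p 14 were higher and 1 lower. Cfap161 (1.03) and Cfap52 (1.09) were among the 3 with the smallest p. Of 21 other nexin link, radial spoke and central pair genes 9 were higher and 0 lower, with a median of 0.42, and Spag6l (0.94) and Iqcg (0.80) were among the 3 with the smallest p. The other, Ccdc96, was well above background on 1 of 3 saline and 3 of 3 antithrombin arrays, so it entered the test through the group where it was high and no difference is read from it. The counts and medians given for this list still include it, so they are not free of that entry. Of 14 dynein assembly and docking genes 6 were higher and 1 lower, with a median of 0.23 and with Ccdc103 (0.69), Mns1 (0.85) and Zmynd10 (0.82) leading. None of these passed the adjusted threshold, and the background was 9.07% higher and 12.3% lower. Saline mouse 1 was the lowest for 26 of the 31, 14 of the 21 and 6 of the 14 (83.9%, 66.7% and 42.9%, all genes 15.6%). Without it 26 of the 31 were positive, and the 3 lists had 11, 9 and 6 higher and 0 lower. In that fit 14.5% of all genes were called in either direction.

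The 12 other axonemal dynein genes were nearer to 0, with a median of 0.04, 3 higher and 0 lower. The counts were 1 higher and 1 lower without saline mouse 1, 2 higher and 3 lower without saline mouse 2, and 1 higher without antithrombin mouse 2 or antithrombin mouse 3. In those fits 14.5%, 31.5%, 15.7% and 13.5% of all genes had an unadjusted limma p under 0.05 in either direction. With all mice the share was 21.3%. Wdr78, an inner arm intermediate chain, was at 1.35, Wdr63 at 0.46 and the inner arm heavy chain Dnah6 at 0.60. Without saline mouse 1 these medians were 0.21 for the other axonemal and basal body genes, 0.29 for the nexin, spoke and central pair genes, 0.20 for assembly and docking and -0.04 for the dyneins. Genes of intraflagellar transport, the traffic that builds motile and primary cilia alike, had a median of 0.12 over 20, with 7 higher and 0 lower. Ttc21b (0.89), Ift80 (0.76) and Ift81 (0.40) led, and saline mouse 1 was the lowest for 5 of the 20 (25%, all genes 15.6%).

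Among 19 other regulators and centriole genes 9 were higher and 1 lower by unadjusted limma p, with a median of 0.16 and none past adjustment. Without saline mouse 1, 2 or 3 the counts were 4, 7 and 5 higher and 2, 3 and 0 lower. Of all genes, 14.5%, 31.5% and 12.8% were called in either direction in those fits. Without antithrombin mouse 1, 2 or 3 the counts were 5 higher each time and 1, 2 and 2 lower. The shares of all genes were 15.4%, 15.7% and 13.5% there, against 21.3% with all mice. Ccdc78 (0.77), which organises deuterosomes, Tfdp1 (0.45), the dimer partner of E2f factors, and Sass6 (0.46), of the centriole cartwheel, had the smallest p. Several of this list serve dividing cells too. Proliferating cell genes had 16 of 16 positive differences with a median of 0.63. By unadjusted limma p 13 of them were higher, against 9.07% of all genes, and 0 passed adjustment (smallest adjusted p = 0.153). Saline mouse 3 was the lowest mouse for all 16, and for 20.8% of all genes tested. Their per-mouse means were 0.05, 0.24 and -0.29 in saline mice and 0.74, 0.46 and 0.63 in antithrombin mice, and their part in the differences of centriole genes was not tested. Blood progenitor and T cell genes, which share Myb, had a median of -0.06 with 0 of 12 higher and 1 lower.

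Genes shared by epithelial cells of many kinds had mostly negative differences. The 10 on the pan-epithelial list had a median of -0.27, or -0.14 without saline mouse 3, with 9 negative, and 1 higher and 2 lower by unadjusted limma p (5 lower without saline mouse 2). Without saline mouse 2, 31.5% of all genes were called by that p in either direction, against 21.3% with all mice. Krt8 (-0.43), Elf3 (0.38) and Krt18 (-0.35) had the smallest p. Basal, neuroendocrine and tuft cell markers had a median of -0.03 over 11, with Krt14 (-1.24) lower and 0 higher. Antithrombin mouse 3 was the lowest mouse for 6 of those 11 and for 21.0% of all genes. Without it the median was 0.59, with 2 higher and 1 lower, where 13.5% of all genes were called in either direction. Without antithrombin mouse 1 the median was -0.13. Of the cartilage genes that mark large airways 5 of 11 were tested. Among them Hapln1 and Col9a1 stood well above background on every saline array but on 1 of 3 antithrombin arrays, so they entered the test through the group where they were high, and no difference is read from that list.

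Several cilia genes carried more than 1 probe. The 35 genes had 51 probes, 13 genes had several, and 14 further probes were detected on at least 3 arrays. Of these 14, 11 had the sign of the probe used. The exceptions were a probe of Rfx3 (-0.51), of Spag16 (-0.22) and of Pifo (-0.04). All 14 were dimmer than the probe used, which was chosen as the brightest.

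**Figure D5:**
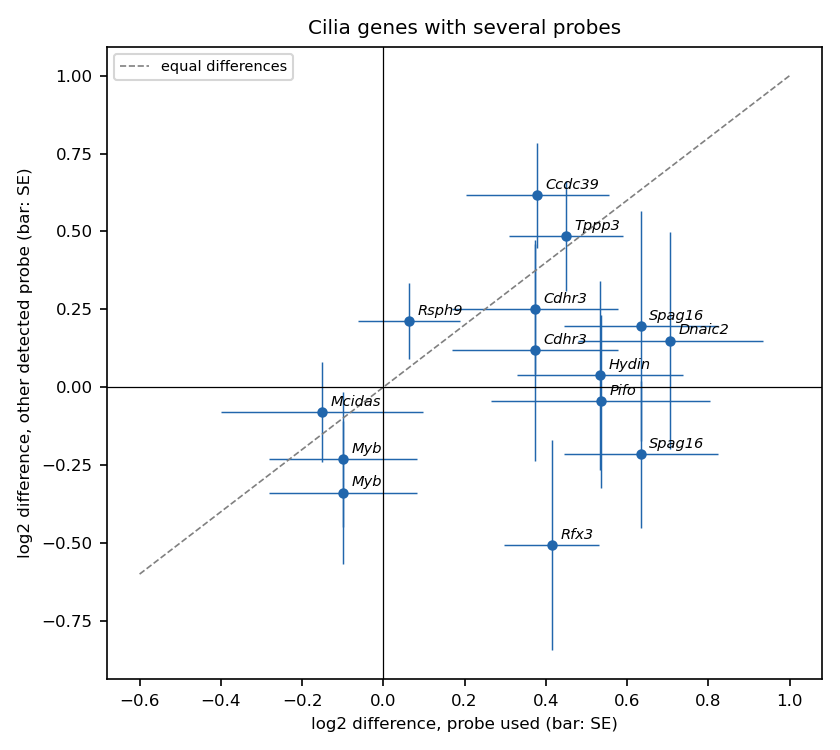
Log2 difference of the 14 further detected probes (vertical) against that of the probe used for the same gene (horizontal), with SE bars from a limma fit of all probes singly. Tppp3, Cdhr3, Mcidas and Myb have the same sign on each probe, and Rfx3, Pifo and a probe of Spag16 lie below 0 where the probe used is above it.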

How the data were processed

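Lung RNA of 6 mice was measured on 1-colour Agilent arrays on 1 slide, scanned on 1 date. The scanner files deposited by the authors hold spot intensity values, made with Agilent Feature Extraction 10.7.3.1 per the file headers, while the submitters' processing notes name version 9.1. The deposited value table holds log2 values that matched the log2 processed signals to within 0.01 for 100% of probes once each probe was centred and each array shifted. Its column medians ran from -0.0372 to 0.0770. How that centring and the scaling between arrays were made is not given in the sources used here.

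Values were computed as log2 of the processed signal minus the array's 75th percentile over non-control spots. Control and outlier spots were left out, and spots of a probe were averaged. Of 56605 probes, 32994 were named through RefSeq transcripts of GRCm38.p6, matched without version. A gene was represented by its brightest probe and entered the test when 3 or more arrays had it well above background. Groups were compared with limma 3.58.1 in R 4.3.3, two-sided, at a Benjamini-Hochberg adjusted threshold of 0.05, after tests on simulated data. The members, lists, motifs and tests were chosen with earlier results of these data known. Mouse values are given for every regulator and, in each structural role group, for the 2 smallest p and the brightest probe, and from other lists up to 3 genes of smallest p are named. The 16 alternatives were normexp with an offset of 50 on the median pixel signals (the files used here have no mean signal column), quantile and median scaling, filters, mean of probes, the value table, trended variance, blocks and leaving out each mouse. Matplotlib 3.10.9 drew the figures.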

Additional observations from a re-analysis of the deposited data

How the results depend on the processing

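Directions of 24 of the 35 members were the same under all 16 alternatives, those of Lrrc23, Dnali1, Dnah5, Rsph4a and Gmnc among them, and 11 reversed at least once, at 14 values. With the mean of detected probes Rfx3 was at -0.046. Leaving out 1 mouse at a time gave ranges that crossed 0 for Dnah11 (-0.071 to 0.24), Rsph9 (-0.00012 to 0.15), Spag17 (-0.040 to 0.35), Tekt4 (-0.12 to 0.14), Ak7 (-0.078 to 0.26), Mcidas (-0.29 to 0.084), Myb (-0.21 to 0.061), Tekt1 (-0.11 to 0.077), Tmem212 (-0.20 to 0.14) and Ak8 (-0.13 to 0.0067). The cause was not tested. Members past the adjusted threshold ranged from 0 to 6 on leaving out 1 mouse, 6 without saline mouse 2, and the regulator median from 0.017 to 0.29. With normexp, 13 members were higher and 2 lower at an unadjusted limma p under 0.05, and 23.6% of all genes were called in either direction. With quantile normalisation, detection on all 6 arrays, the value table or trended and robust variance, 1 member was lower. The share of all genes called was 21.2% to 23.2% there. Over all genes the count past the threshold was 2, and it was 1 with quantile normalisation, median scaling, no filter, detection on all 6 arrays, trended and robust variance or the array row as a block, and 0 to 3304 on leaving out 1 mouse. With the mouse number as a replicate block it was 0, with 5011 genes at an unadjusted p under 0.05 (limma), 13 of them members. The deviations of same-numbered mice had r = -0.01, -0.16 and -0.28 across genes, and those of differently numbered mice -0.10 to 0.28. With 3 mice a group, whose deviations depend on each other, these values cannot settle whether the numbers pair the mice. With 3 mice a group, the 95% intervals of 21 of 35 members included 0.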
